A study of Mus musculus with 12 samples.

Results

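Promoter accessibility of 10 genes that mark hepatic stellate cells and fibroblasts was examined in bulk mouse liver. The genes are Des, Lrat, Reln, Pdgfrb, Acta2, Col1a1, Col1a2, Col3a1, Dcn and Hgf. They were taken by symbol from a promoter table of 43511 rows, in which they hold 17 rows, and each gene was represented by its row of highest mean CPM (counts scaled to library size) over the 12 libraries. All 10 passed the filter on low counts. The libraries are ATAC-seq libraries, in which the Tn5 transposase inserts sequencing adapters into open chromatin, so that more reads over a promoter mean more accessible DNA there. Livers came from C57BL/6N males, wild type in genotype, 19 to 20 weeks old and on standard chow. The PCN group received 100 mg/kg pregnenolone 16α-carbonitrile, an agonist of the mouse nuclear receptor PXR. The atorvastatin group received 10 mg/kg atorvastatin, a statin that inhibits HMG-CoA reductase, and the control group received vehicle (distilled water). Dosing was by oral gavage over 4 days, and all mice were fasted for 12 h before death. Each group had 4 libraries, made from 100000 nuclei of frozen whole liver. No cell type was sorted, so the member promoters are read over all nuclei together. The share of their counts that comes from stellate cells was not tested, and no background level was set.

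Hepatic stellate cells lie in the space between hepatocytes and the sinusoidal endothelium, where in the resting state they store vitamin A as retinyl esters. On injury they activate, proliferate under platelet-derived growth factor, gain contractile fibres and secrete fibrillar collagen. Portal fibroblasts, around the bile ducts and portal veins, share many of the matrix genes. In a bulk preparation, fewer nuclei of such a cell type and less open chromatin per nucleus cannot be told apart.

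RefSeq (GRCm38.p6) gave promoter sequence, from 250 bases before to 50 after a transcription start, for 7 of the 10 genes. The coordinates of the counted promoter windows were not given in the sources used here, so these are reference promoters of the same genes. The 5 shown are those of the genes with the lowest fitted values under PCN (Des and Lrat), of the gene with the narrowest estimate (Reln), and of a collagen pair of unlike base composition (Col1a2 and Col3a1). Capitals mark the CCAAT box (CCAAT), the GC box (GGGCGG) and the TATA box (TATAAA), each on either strand. None of these matches overlap.
Des, chr1:75360042-75360341, plus strand: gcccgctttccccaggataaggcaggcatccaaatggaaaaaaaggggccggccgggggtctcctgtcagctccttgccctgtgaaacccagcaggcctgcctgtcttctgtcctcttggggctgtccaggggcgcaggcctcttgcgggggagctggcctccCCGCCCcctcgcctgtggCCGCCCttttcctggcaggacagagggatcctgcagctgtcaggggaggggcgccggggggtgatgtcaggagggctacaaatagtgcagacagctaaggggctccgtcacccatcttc
Lrat, chr3:82903925-82904224, minus strand: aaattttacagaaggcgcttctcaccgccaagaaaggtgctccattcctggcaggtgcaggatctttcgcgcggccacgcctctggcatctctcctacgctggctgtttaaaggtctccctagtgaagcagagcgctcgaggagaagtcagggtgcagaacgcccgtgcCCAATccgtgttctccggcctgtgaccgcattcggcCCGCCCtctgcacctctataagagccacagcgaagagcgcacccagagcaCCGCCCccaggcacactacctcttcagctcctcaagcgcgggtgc
Reln, chr5:22344656-22344955, minus strand: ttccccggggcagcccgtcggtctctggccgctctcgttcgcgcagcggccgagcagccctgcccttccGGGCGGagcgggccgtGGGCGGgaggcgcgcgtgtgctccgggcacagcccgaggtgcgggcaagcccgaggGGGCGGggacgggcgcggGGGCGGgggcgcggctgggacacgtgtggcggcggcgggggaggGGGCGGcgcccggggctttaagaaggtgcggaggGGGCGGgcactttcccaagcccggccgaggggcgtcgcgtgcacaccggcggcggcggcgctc
Col1a2, chr6:4505368-4505667, plus strand: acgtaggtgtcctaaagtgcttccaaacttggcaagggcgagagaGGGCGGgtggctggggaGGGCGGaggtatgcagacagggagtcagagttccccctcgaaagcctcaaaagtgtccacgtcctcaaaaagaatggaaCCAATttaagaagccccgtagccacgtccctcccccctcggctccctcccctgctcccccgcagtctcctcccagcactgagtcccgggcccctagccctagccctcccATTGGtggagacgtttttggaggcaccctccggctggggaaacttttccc
Col3a1, chr1:45311288-45311587, plus strand: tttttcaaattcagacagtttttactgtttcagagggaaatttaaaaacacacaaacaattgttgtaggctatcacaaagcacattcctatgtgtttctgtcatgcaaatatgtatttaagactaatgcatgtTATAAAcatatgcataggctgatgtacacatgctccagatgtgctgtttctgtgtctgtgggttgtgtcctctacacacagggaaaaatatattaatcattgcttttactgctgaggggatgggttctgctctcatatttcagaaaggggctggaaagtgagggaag

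These promoters differ widely in base composition. The Reln window was 80.7% G or C with 47 CpG dinucleotides, that of Des 65.3% with 11, that of Col1a2 61% with 13 and that of Lrat 60.7% with 21. The Col3a1 window was 37.7% G or C with 0 CpG, and the median over all 32851 reference windows was 52.7% with 7 CpG. The 7 genes have 8 windows, since Hgf has 2. A GC box was found in 4 of 8 windows, against 35.7% of all windows. A CCAAT box was found in 3 of 8, against 37.4%, and the TATA letters in 1 of 8, against 13.6%. The CArG box, bound by serum response factor in many muscle genes, was searched in its strict form, with only A and T between CC and GG. It matched 0 of 8 windows and 1.63% of all windows. CArG elements with a mismatch, such as those known from the Acta2 promoter, were not counted. A match describes letters in the window and is no evidence of binding.

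Total counts over promoters were 4872850.5 to 10021771.5 in PCN libraries, 4218336.5 to 15336000.5 in atorvastatin libraries and 1679054 to 10493197 in control libraries. The control libraries 3 and 4 were the shallowest, and 3 counts there stand for 1.20 and 1.89 CPM, against 0.217 to 0.664 CPM elsewhere. The median correlation of log2 CPM with the other 11 libraries was 0.698 for control 3 and 0.744 for atorvastatin 3. It was 0.897 to 0.966 for the other 10, so results are also given without control 3 and atorvastatin 3. Hepatocyte marker promoters held counts in every library, though 1 of them had none in control 3. No background level was set beside these sums. The promoters of 8 hepatocyte genes, of 9 listed, summed to 306.5 to 455.4 CPM in PCN, 245.7 to 466.2 CPM in atorvastatin and 153.3 to 407.2 CPM in control libraries.

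In the comparison of PCN with control, no member passed the test, and neither did any other promoter. The fitted log2 fold change lay below 0 for 9 of 10 members, with a median of -0.33. Below 0 also lay 49% of all 41908 promoters tested, whose median was 0.01. The lowest values were those of Des and Lrat, and the one above 0 was that of Acta2. The test was edgeR's quasi-likelihood F test, adjusted by Benjamini-Hochberg over all promoters. It called 0 of 10 members and 0% of all promoters, and the lowest adjusted p among members was 0.918. DESeq2 and limma-voom also called 0 members. An unadjusted p under 0.05 was reached by 1 of 10 members and by 3.75% of all promoters. Groups did not overlap at 0 of 10 members and at 3.59% of all promoters. Levels are given here as TMM-scaled CPM of a promoter, and differences as edgeR log2 fold changes with their approximate SE.

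Lrat encodes lecithin retinol acyltransferase, which forms the retinyl esters that stellate cells store. Its promoter held 7.06, 7.90, 5.05 and 4.14 CPM in PCN libraries 1 to 4, 13.7, 5.28, 7.56 and 4.08 CPM in atorvastatin libraries, and 10.5, 6.83, 20.7 and 9.43 CPM in control libraries. Control 3 stood highest and the PCN libraries lay below the control mean in 4 of 4, yet PCN 1 and 2 exceeded control 2, so the groups overlapped. The log2 fold change for PCN was -0.96 ± 0.50 (SE, n = 4 libraries per group, edgeR adjusted p = 0.918), with a 95% interval of -1.93 to 0.02. It was -0.55 ± 0.41 without control 3 and atorvastatin 3.

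Des encodes desmin, an intermediate filament protein of muscle cells and, in rodents, of stellate cells. The Des promoter held 8.71, 5.16, 3.48 and 5.69 CPM in PCN libraries, 8.41, 5.56, 14.7 and 6.40 CPM in atorvastatin libraries, and 8.76, 11.6, 21.9 and 7.54 CPM in control libraries. Control 3 was again the highest of all 12, and PCN 1 lay inside the control range. Its log2 fold change for PCN was -1.10 ± 0.48 (SE, n = 4 libraries per group, edgeR adjusted p = 0.918), the lowest of the 10, with 4 of 4 PCN libraries below the control mean. The value was -0.70 ± 0.41 without control 3 and atorvastatin 3, and its interval of -1.51 to 0.10 included 0. The unadjusted p by edgeR was 0.0303 with all libraries and 0.0886 without those 2.

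Reln, the gene of the secreted glycoprotein reelin, held 16.6, 21.5, 12.8 and 11.2 CPM in PCN libraries, 21.2, 20.0, 19.3 and 12.0 CPM in atorvastatin libraries, and 18.0, 18.6, 17.1 and 16.3 CPM in control libraries. Control libraries were close to each other, at 17.5 ± 0.993 CPM (SD, n = 4), and the PCN libraries lay on either side of them at 15.5 ± 4.59 CPM (SD, n = 4). The PCN log2 fold change was -0.19 ± 0.26, the narrowest estimate among the members.

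Hgf encodes hepatocyte growth factor, a ligand that mesenchymal cells secrete and hepatocytes sense through the receptor MET. The gene lies at chr5:16553495-16619439. Its promoter held 9.45, 7.58, 11.0 and 6.21 CPM in PCN libraries, 13.9, 9.54, 19.1 and 9.87 CPM in atorvastatin libraries, and 15.1, 10.9, 8.37 and 2.51 CPM in control libraries. The control libraries spread most, with 4 counts in control 4, whose exact Poisson 95% interval runs from 0.685 to 6.44 CPM. This interval covers counting error only. The PCN log2 fold change was -0.17 ± 0.43. Its 5 transcript rows held 2 distinct sets of counts, since 4 of them were identical.

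Pdgfrb encodes the receptor for platelet-derived growth factor B, the main mitogen of stellate cells, and lies at chr18:61045127-61085067. Its promoter held 11.0, 7.16, 4.88 and 7.35 CPM in PCN libraries, 15.0, 7.23, 14.3 and 6.65 CPM in atorvastatin libraries, and 12.1, 10.0, 17.5 and 7.54 CPM in control libraries. PCN libraries lay below the control mean in 4 of 4, with PCN 1 above controls 2 and 4. The log2 fold change was -0.63 ± 0.42, and -0.40 ± 0.35 without control 3 and atorvastatin 3.

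Acta2, the smooth muscle actin gene that marks activated stellate cells and vascular smooth muscle, lies at chr19:34240336-34255585. Its promoter held 3.87, 6.74, 1.91 and 0.621 CPM in PCN libraries, 3.98, 2.46, 4.51 and 3.26 CPM in atorvastatin libraries, and 4.08, 2.80, 1.99 and 2.51 CPM in control libraries. The extremes of all 12 were PCN 2, the highest, and PCN 4, the lowest with 3 counts. The PCN log2 fold change was 0.16 ± 0.70, with an interval of -1.21 to 1.53, and it was -0.42 without PCN 2.

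**Figure D1:**
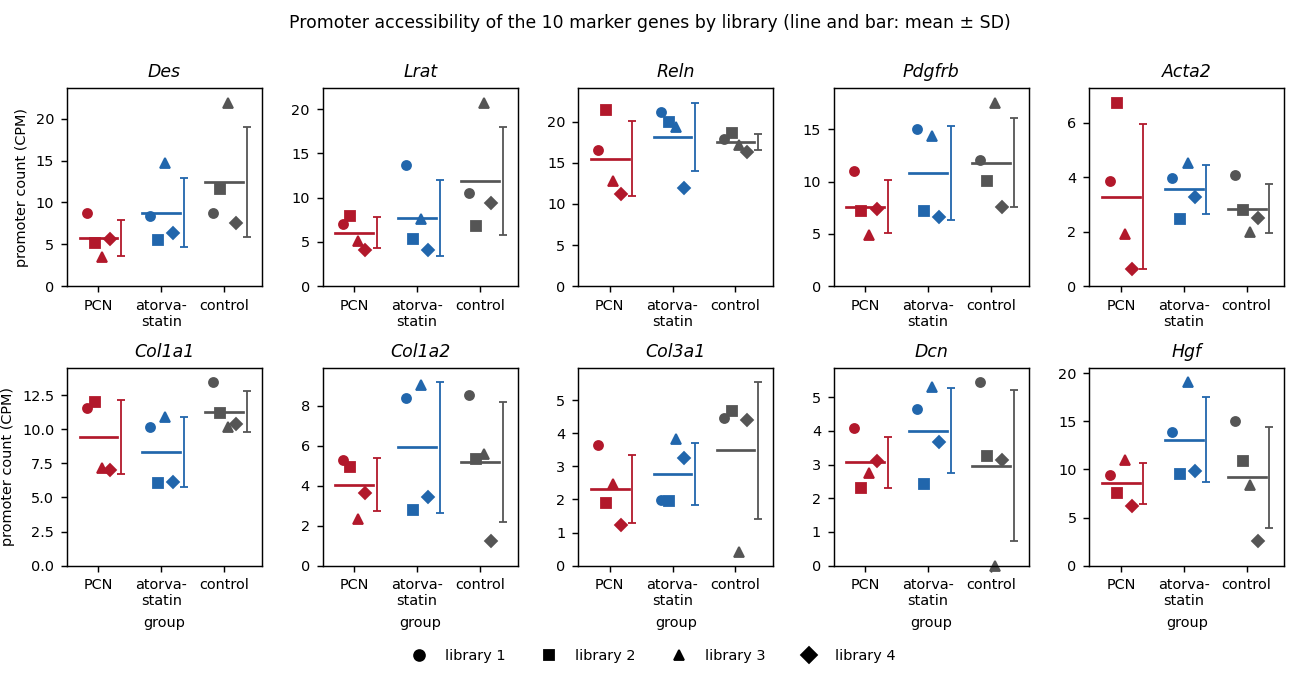
Each panel plots the promoter count of 1 gene in CPM (TMM-scaled, vertical axis from 0) for the 4 PCN, 4 atorvastatin and 4 control libraries (horizontal axis). Symbols give the library number within a group, lines the mean and bars the SD. Control 3 (grey triangle) is the highest point for Des, Lrat and Pdgfrb and the lowest for Col3a1 and Dcn, and within each comparison the groups overlap in every panel.

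Col1a1 and Col1a2 encode the chains of type I collagen, the main fibrillar collagen of scar tissue. The genes lie at chr11:94936224-94953042 and chr6:4505618-4541543 (GRCm38). Col1a1 held 11.6, 12.0, 7.12 and 7.04 CPM in PCN libraries, 10.2, 6.03, 10.9 and 6.16 CPM in atorvastatin libraries, and 13.4, 11.2, 10.2 and 10.4 CPM in control libraries. PCN 3 and 4 lay under all controls while PCN 1 and 2 lay among them, and the log2 fold change was -0.26 ± 0.40.

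Col1a2 held 5.29, 4.95, 2.36 and 3.62 CPM in PCN libraries, 8.41, 2.78, 9.03 and 3.42 CPM in atorvastatin libraries, and 8.55, 5.36, 5.58 and 1.26 CPM in control libraries. The control range enclosed every PCN library, and the log2 fold change was -0.40 ± 0.62. Their products join in a single collagen molecule, and control 1 was the highest control for both genes. Control 4 exceeded control 3 for Col1a1 but was the lowest control for Col1a2, where it had 2 counts.

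Col3a1, the gene of type III collagen, held 3.64, 1.90, 2.47 and 1.24 CPM in PCN libraries, 1.99, 1.95, 3.84 and 3.26 CPM in atorvastatin libraries, and 4.47, 4.66, 0.399 and 4.40 CPM in control libraries. In control 3 this was 1 count, with an exact Poisson 95% interval of 0.0101 to 2.22 CPM, while the other 3 controls lay above every PCN library. The log2 fold change was -0.59 ± 0.71 with all libraries and -0.92 ± 0.61 without control 3 and atorvastatin 3, neither past the threshold (edgeR adjusted p = 0.923 and 0.905).

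Dcn encodes decorin, a small proteoglycan that binds collagen fibrils, and lies at chr10:97479500-97518163. Its promoter held 4.1, 2.32, 2.75 and 3.10 CPM in PCN libraries, 4.65, 2.42, 5.30 and 3.67 CPM in atorvastatin libraries, and 5.44, 3.26, 0 and 3.14 CPM in control libraries. A count of 0 in control 3 allows up to 1.20 CPM, counting error only. The log2 fold change was -0.02 ± 0.71, and -0.40 ± 0.57 without control 3 and atorvastatin 3.

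Leaving out control 3 and atorvastatin 3 kept 9 of 10 members below 0 for PCN, with a median of -0.40, against 51.7% and a median of -0.02 among all promoters. With loess offsets, which scale libraries by abundance, 7 of 10 lay below 0, with a median of -0.15. Dcn and Hgf then lay above 0, at 0.25 and 0.08. Control 3 moved the members in unlike directions. It was the highest of the 12 libraries for Des, Lrat and Pdgfrb, and the lowest for Col3a1 and Dcn.

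**Figure D2:**
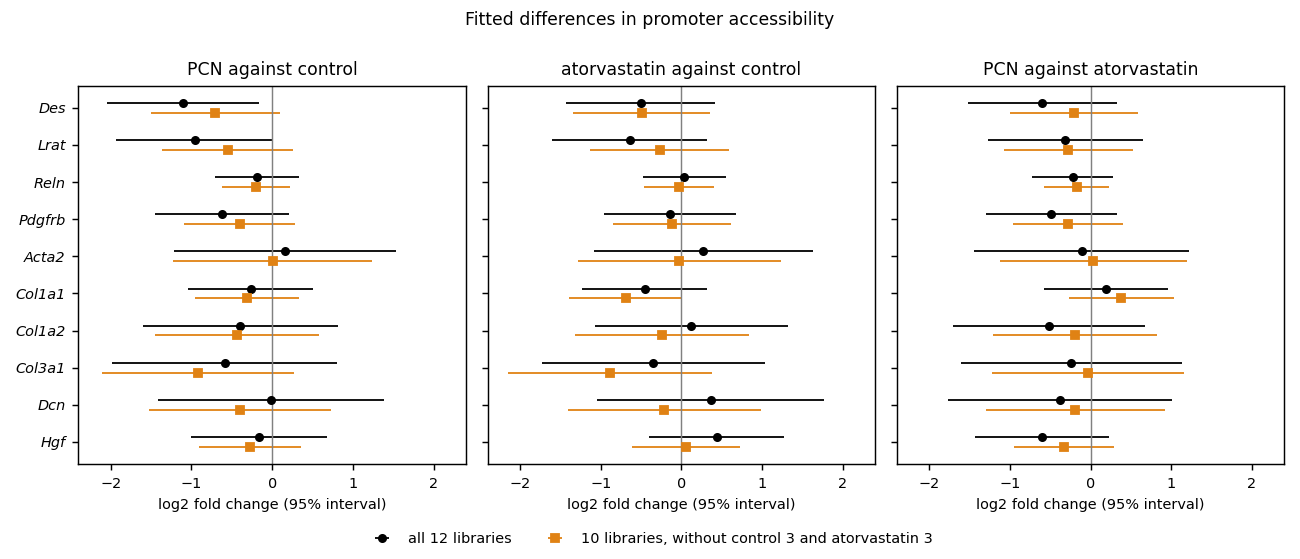
Points are edgeR log2 fold changes of promoter counts (horizontal axis) for each gene (vertical axis) in the 3 comparisons, and lines are approximate 95% intervals. Circles use all 12 libraries and squares the 10 without control 3 and atorvastatin 3. With all libraries the interval lies wholly below 0 only for Des under PCN, and without those 2 libraries it includes 0 for Des as well.

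In the comparison of atorvastatin with control, members did not share a direction, with 5 of 10 below 0 and a median log2 fold change of -0.05. Among all promoters 42.7% lay below 0 and the median was 0.05. The lowest values were those of Lrat at -0.64 ± 0.49, Des at -0.51 ± 0.47 and Col1a1 at -0.46 ± 0.40, and the highest that of Hgf at 0.44 ± 0.43. Col3a1 at -0.35 ± 0.71 and Pdgfrb at -0.14 ± 0.42 were the others below 0. Above 0 were also Dcn at 0.36 ± 0.72, Acta2 at 0.27 ± 0.69, Col1a2 at 0.12 ± 0.61 and Reln at 0.04 ± 0.26. Called were 0 of 10 members and 0% of all promoters, with an edgeR adjusted p of 1 for each member. An unadjusted p under 0.05 was reached by 0 of 10 members and 1.93% of all promoters, and groups did not overlap at 0 of 10 and 0.969%. Hgf lay above the control mean in 4 of 4 atorvastatin libraries, and Col1a1 below it in 4 of 4. The Hgf control mean of 9.20 CPM included control 4 at 2.51 CPM from 4 counts. Atorvastatin 2 and 4, at 9.54 and 9.87 CPM, lay below controls 1 and 2.

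The atorvastatin group was itself divided. Atorvastatin 3 lay above the median of the 12 libraries at 10 of 10 members and atorvastatin 1 at 8 of 10, while atorvastatin 4 did so at 4 and atorvastatin 2 at 1. Without control 3 and atorvastatin 3, 9 of 10 members lay below 0, against 52.2% of all promoters, and the median was -0.23. Col1a1 was then at -0.69 ± 0.36 with an interval of -1.39 to 0.01 (edgeR adjusted p = 0.911). Hgf, the only member still above 0, was at 0.055 ± 0.34 in that fit. The difference between the PCN and atorvastatin values of a member is given by their direct comparison, since both comparisons above use the same control libraries.

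In the comparison of PCN with atorvastatin, 9 of 10 members lay below 0, against 52.1% of all promoters. This was not particular to the members, since 9 of 10 Kupffer cell and 9 of 10 endothelial markers lay below 0 too. The members' median was -0.35 on the log2 scale, and that of all promoters -0.02. With loess offsets 8 of 10 lay below 0 and the members' median was -0.10. The values nearest -0.6 were those of Hgf at -0.60 ± 0.42 and Des at -0.60 ± 0.47, and each had 4 of 4 PCN libraries below the atorvastatin mean. Col1a2 at -0.52 ± 0.61 did too. Pdgfrb was at -0.49 ± 0.42, Dcn at -0.38 ± 0.71, Lrat at -0.32 ± 0.49, Col3a1 at -0.24 ± 0.70, Reln at -0.22 ± 0.26 and Acta2 at -0.11 ± 0.68. Col1a1 was the one above 0, at 0.19 ± 0.39. Again 0 of 10 members and 0% of all promoters were called, and the adjusted p of each member was 1 by edgeR. An unadjusted p under 0.05 was reached by 0 of 10 members and 0.73% of all promoters, and groups did not overlap at 0 of 10 and 0.506%. Without control 3 and atorvastatin 3, 8 of 10 lay below 0, against 47.2% of all promoters, and the median was -0.19.

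The members were also read by library, beside markers of other liver cells. The promoters of the 10 members summed to 81.3, 77.2, 53.8 and 50.2 CPM in PCN libraries 1 to 4. They summed to 101.5, 63.2, 108.6 and 58.7 CPM in atorvastatin libraries, and to 100.4, 85.2, 103.9 and 65.0 CPM in control libraries. High sums fell in libraries 1 and 3 of the atorvastatin and control groups and in libraries 1 and 2 of PCN, and the groups overlapped.

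Sums of 10 liver endothelial markers, such as Stab2 and Lyve1, were 117.1, 119.1, 95 and 88.7 CPM in PCN libraries, 137.8, 101.2, 177.8 and 94.1 CPM in atorvastatin libraries, and 141.0, 109.2, 128.4 and 100.9 CPM in control libraries. These were high in the same libraries of each group as the member sums. For 10 Kupffer cell markers the sums were 84.0, 62.1, 73.6 and 59.4 CPM in PCN libraries, 78.5, 48.6, 134.0 and 72.0 CPM in atorvastatin libraries, and 93.7, 69.3, 147.9 and 46.2 CPM in control libraries. The sums of 10 lymphocyte markers ranged over 41.1 to 68.4, 26.5 to 105.0 and 39.0 to 73.4 CPM in PCN, atorvastatin and control libraries. Those of 8 cholangiocyte markers ranged over 69.8 to 93.1, 77.0 to 141.3 and 79.3 to 128.8 CPM. For 9 mesothelial and smooth muscle genes, of which Des is also a member, the ranges were 97.6 to 118.9, 96.9 to 169.6 and 95.6 to 150.1 CPM.

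Hepatocyte sums ran the other way within the atorvastatin and control groups. They were 306.5, 455.4, 342.1 and 388.3 CPM in PCN libraries, 245.7, 466.2, 347.2 and 455.4 CPM in atorvastatin libraries, and 235.2, 364.1, 153.3 and 407.2 CPM in control libraries. In both the atorvastatin and the control group, libraries 1 and 3 had the higher member sums and the lower hepatocyte sums. In the PCN group, library 2 had the highest hepatocyte sum and the second member sum, so the opposition was not seen there. For PCN against control, 7 of 8 hepatocyte promoters lay above 0, with a median log2 fold change of 0.40. Below 0 lay 7 of 10 Kupffer cell promoters (median -0.39), 8 of 10 endothelial (median -0.22), 6 of 8 cholangiocyte (median -0.22), 7 of 10 lymphocyte (median -0.21) and 7 of 9 mesothelial and smooth muscle promoters (median -0.50). For atorvastatin against control the medians were 0.39 for hepatocyte, -0.21 for Kupffer cell, 0.05 for endothelial, 0.02 for cholangiocyte, -0.15 for lymphocyte and 0.07 for mesothelial and smooth muscle promoters. For PCN against atorvastatin, 9 of 10 Kupffer cell, 9 of 10 endothelial and 7 of 8 cholangiocyte promoters lay below 0. So did 7 of 10 lymphocyte and 8 of 9 mesothelial and smooth muscle promoters, but only 1 of 8 hepatocyte promoters. None of these promoters was called. No marker list was at 0 in any library, and 0 markers were at 0 in all 12. The part of nonparenchymal content in the members' group differences was not tested.

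**Figure D3:**
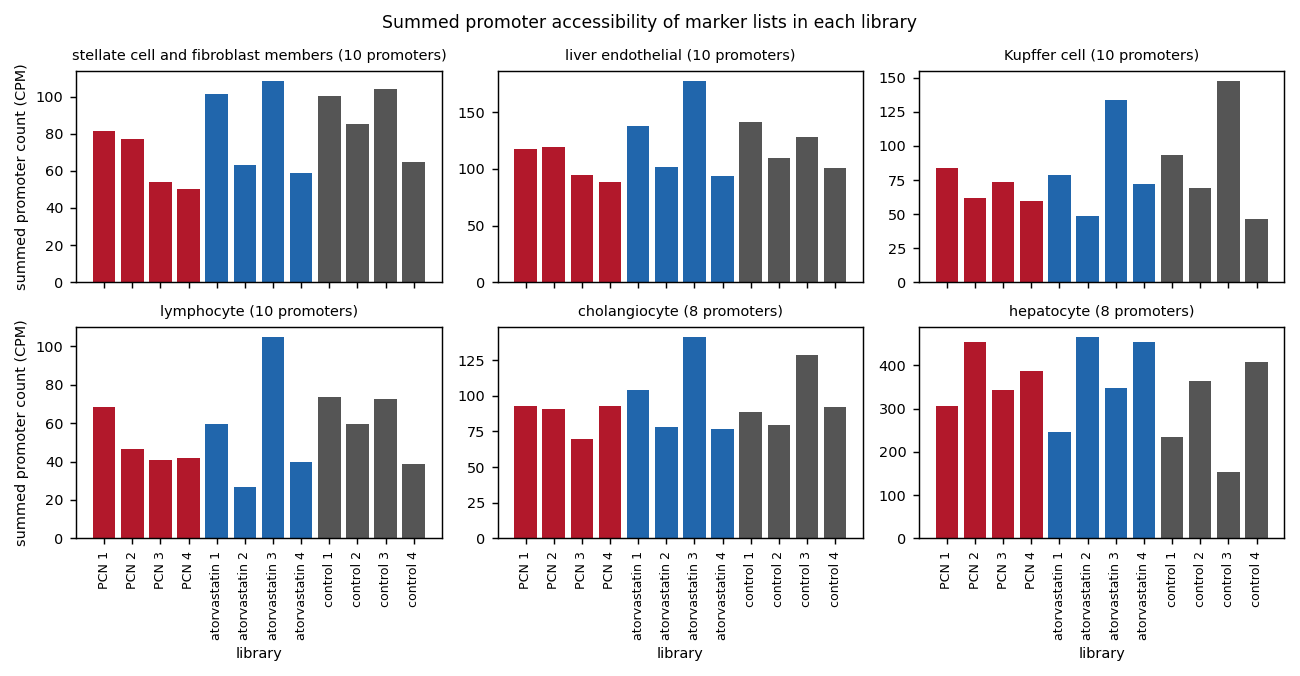
Bars give summed promoter counts in CPM (vertical axis, from 0) in each of the 12 libraries (horizontal axis, PCN red, atorvastatin blue, control grey). Shown are the members and the other cell type lists, without that of mesothelial and smooth muscle genes. Member sums of 101.5 and 108.6 CPM in atorvastatin 1 and 3 and of 100.4 and 103.9 CPM in control 1 and 3 stand beside hepatocyte sums that are the lower ones of their groups.

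Other genes of the same cells and of fibrogenic signalling were read from 3 wider lists. Of 22 further genes of resting and activated stellate cells 21 were tested, and Loxl2 was not. None was called in any comparison, and the lowest edgeR adjusted p was 0.918 for PCN and 1 for atorvastatin. For PCN 15 of 21 lay below 0 with a median log2 fold change of -0.05, and for atorvastatin 10 of 21 with a median of 0.04. For PCN against atorvastatin it was 19 of 21, with a median of -0.14. The 2 lowest under PCN by p were Ngfr, the gene of the p75 neurotrophin receptor, at -1.14 ± 0.51, and Gfap, an intermediate filament gene of glia and rodent stellate cells, at -1.01 ± 0.49. Each lay below the control mean in 4 of 4 PCN libraries. Ngfr was also the lowest with atorvastatin, at -1.08 ± 0.51, and Cygb, the gene of the globin cytoglobin, was at -0.56 ± 0.50. On the higher side, Tcf21, a mesenchymal transcription factor gene, was at 0.17 ± 0.54 under PCN and Ecm1, a matrix protein gene, at 0.46 ± 0.29 under atorvastatin.

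Among 30 genes of the extracellular matrix and portal fibroblasts, all tested, none was called. Under PCN 24 of 30 lay below 0 with a median log2 fold change of -0.27, and under atorvastatin 12 of 30 with a median of 0.05. For PCN against atorvastatin it was 27 of 30, with a median of -0.40. Col6a1, which encodes a chain of type VI collagen, was at -1.17 ± 0.53 under PCN, and Fbln2, the gene of the matrix glycoprotein fibulin-2, at -0.79 ± 0.44 under PCN and -0.56 ± 0.43 under atorvastatin. Eln, the elastin gene, was at -0.65 ± 0.37 under atorvastatin. Higher were Fn1, the fibronectin gene, which hepatocytes also express, at 0.34 ± 0.31 and Gli1, a Hedgehog pathway factor gene, at 0.14 ± 0.34 under PCN. Under atorvastatin Col6a3, another chain of type VI collagen, was at 1.23 ± 0.64, though above the control mean in 2 of 4 libraries, and Lox, the gene of the crosslinking enzyme lysyl oxidase, was at 0.73 ± 0.53.

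The third list held 20 ligand, receptor and SMAD genes of fibrogenic signalling, all tested. Under PCN 8 of 20 lay below 0 with a median log2 fold change of 0.05, and under atorvastatin 9 of 20 with a median of 0.09. For PCN against atorvastatin it was 9 of 20, with a median of 0.03. None was called. Pdgfd, which encodes a ligand of the Pdgfrb product, was at -0.60 ± 0.36 under PCN and -0.70 ± 0.35 under atorvastatin, below the control mean in 4 of 4 libraries of each group. Itgav, an integrin gene, was at -0.46 ± 0.29 under PCN and Tgfb3, a transforming growth factor gene, at -0.66 ± 0.27 under atorvastatin. Tgfbr2, a receptor gene of that pathway, was at 0.23 ± 0.20 under PCN and 0.15 ± 0.20 under atorvastatin. Met, the receptor gene for the Hgf product, was at 0.23 ± 0.26 under PCN, and Ddr1, which encodes a collagen receptor, at 0.35 ± 0.40 under atorvastatin.

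Enhancer regions near the members gave a second reading from the same libraries. Members were chosen with earlier results of these data known, so this reading is not independent of that choice. Of 406518 regions, 104 overlapped the body of a member gene or lay nearest to it within 50 kb, and 12 of them, near 3 genes, passed the count filter. Reln, the longest gene, had 33 regions and 0 tested. The 12 tested regions overlap each other and form 1 locus near Col1a1, 2 near Des and 1 inside Pdgfrb, so they are not 12 separate observations.

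For PCN all 12 lay below 0, with a median log2 fold change of -0.68. Among all 182115 regions tested, 38% lay below 0 and the median was 0.17. For atorvastatin 9 of 12 did, with a median of -0.44, against 41.6% and 0.12 for all regions. For PCN against atorvastatin 12 of 12 did, with a median of -0.34, against 44.6% and 0.06. The edgeR test, adjusted over all regions, called 0 of 12 and 0% of all regions in each comparison, with an adjusted p of 1 for every member region. An unadjusted p under 0.05 was reached by 1 of 12, against 1.93% of all regions, for PCN against control. It was reached by 0 of 12 for atorvastatin, against 2.39%, and by 0 of 12 for PCN against atorvastatin, against 0.465%. Without control 3 and atorvastatin 3, 14 regions were tested. Of these, 14 lay below 0 for PCN with a median of -0.73, 14 for atorvastatin with a median of -0.87, and 11 for PCN against atorvastatin with a median of -0.06. Other settings also moved these medians by over 1.5 times. For PCN the median was -0.31 without PCN 4 and -0.33 without control 2. For atorvastatin it was -0.20 with the replicate block, with 6 of 12 below 0, -0.04 without control 4, with 13 of 22 below 0, and 0.02 with assignment within 20 kb, with 3 of 6 below 0. It was also -0.18 without atorvastatin 1, -0.17 without control 2, -0.28 without atorvastatin 4 and -0.72 without control 1. For PCN against atorvastatin it was -0.03 without PCN 3, -0.20 without PCN 4, -0.12 without atorvastatin 3 and -0.53 with assignment within 20 kb.

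The region of smallest p lay 2865 bp beyond the annotated end of Des (mm10, chr1:75371445-75371591). It held 1.17, 1.85, 1.31 and 0 CPM in PCN libraries 1 to 4, 4.95, 1.39, 5.75 and 0.417 CPM in atorvastatin libraries, and 2.45, 2.44, 10.8 and 9.98 CPM in control libraries. All PCN libraries lay under all controls, with at most 7 counts in PCN and 7.5 to 20 counts in control libraries. No PCN library reached the filter's minimum count of 10, so the region was tested because of the other groups. Control 3 and 4, the highest here, had no counts at 68.6% and 38% of all enhancer regions. At the other Des locus (chr1:75342966-75343094) control 3 held 0 counts and control 4 held 1. Groups did not overlap at 1 of 12 member regions and at 4.51% of all regions tested. For atorvastatin this was 0 of 12, against 2.77%, and for PCN against atorvastatin 0 of 12, against 2.32%. The PCN log2 fold change of the region beyond the end of Des was -2.43 ± 0.90 (SE, n = 4 libraries per group, edgeR adjusted p = 1). The table holds regions of 12 widths, and for each width another library has the highest mean count relative to its total. This region is 146 bp wide, the width at which that library is control 4. The effect of that on its value was not tested.

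Summed over the 4 tested Des regions, the level was 12.2, 9.82, 3.56 and 1.79 CPM in PCN libraries, 7.92, 8.83, 20.7 and 7.58 CPM in atorvastatin libraries, and 18.2, 17.1, 10.8 and 12.8 CPM in control libraries. PCN 3 and 4 were the lowest of the 12, and PCN 1 exceeded control 3. The 4 Des regions form 2 loci, so a read can be counted more than once in these sums. The locus near Col1a1, 20258 to 20332 bp from the gene body on chromosome 11, held 13.9, 19.2, 8.81 and 14.0 CPM over its 6 overlapping regions in PCN libraries, 31.9, 11.1, 17.7 and 8.14 CPM in atorvastatin libraries, and 14.9, 13.5, 21.6 and 50.8 CPM in control libraries. Control 4 was the highest here, with 6.5 to 10 counts in each of the overlapping regions. Its enhancer total of 1256648.5 counts was the lowest of the libraries, and overlapping regions can count a read more than once. The 2 overlapping Pdgfrb regions, inside the gene body, held 5.40, 6.26, 0.750 and 1.61 CPM in PCN libraries, 5.69, 1.80, 12.7 and 0.905 CPM in atorvastatin libraries, and 11.7, 1.30, 0 and 0 CPM in control libraries.

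**Figure D4:**
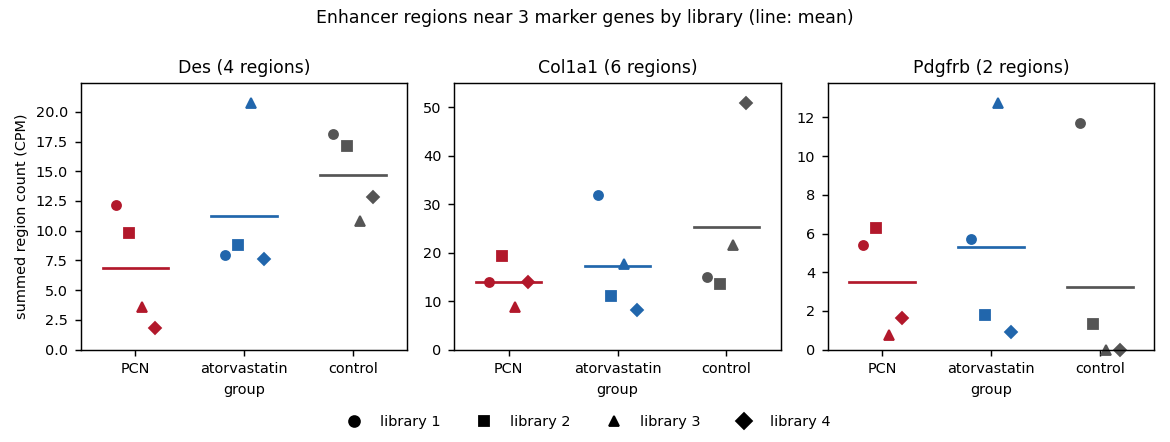
Each panel plots the summed count in CPM (vertical axis, from 0) of the tested enhancer regions near 1 gene in each library of the PCN, atorvastatin and control groups (horizontal axis), with the group mean as a line. Des regions run from 1.79 CPM in PCN 4 to 20.7 CPM in atorvastatin 3, and the high Col1a1 mean of controls rests on control 4 at 50.8 CPM. Overlapping regions can count a read more than once, and control 4 held 6.5 to 10 counts in each Col1a1 region.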

How the data were processed

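ATAC-seq was carried out by the authors on 12 liver libraries. The deposited tables hold expected counts per promoter and per enhancer region, unnormalised and in steps of 0.5, a unit read from the values. Per the submitters' processing notes, the build was mm10 and the tools included HOMER 4.10, bedtools 2.30.0, STAR 2.7.9a and Trimmomatic, without stated roles. The rule for promoter windows, the counting tool and any filter are not given in the sources used here. The labels give 9 to 10 mice and 4 libraries per group, but not whether each library came from 1 mouse. The p-values therefore reflect variation among these libraries, which may be technical.

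Counts were rounded and each whole table was fitted with edgeR 4.0.16 in R 4.3.3 (filterByExpr at minimum count 10 and minimum total 15, TMM factors, group as the only term, quasi-likelihood test). Benjamini-Hochberg adjustment covered all rows tested, with a threshold of 0.05. Each SE was derived from the fitted log2 fold change and the root of its F statistic, so intervals are approximate. The fit was also run on simulated counts, which held no library set apart like control 3 or atorvastatin 3. The outcome of that run is not used here. Enhancers were assigned to protein-coding gene bodies of RefSeq (GRCm38.p6) with GenomicRanges 1.54.1. The other genes named are the 2 of lowest unadjusted p per direction in each list, for PCN and for atorvastatin against control. A result that this rule would name is not reported here. All members are named. Members and lists were chosen with earlier results of these data known. DESeq2 1.42.0, limma 3.58.1 (voom), other scalings, filters and left-out libraries were alternatives. Loess offsets without control 3 and atorvastatin 3 were added after seeing the data.

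Same-numbered libraries of different groups correlated in their deviations from the group means at -0.416 to 0.5. For numbers 1 and 4 the values were positive in every comparison, from 0.227 to 0.5. Those for numbers 2 and 3 had either sign, and the lowest was number 3 of PCN against atorvastatin. No paired design is stated, so the main fit did not take the numbers as pairs, and the replicate block was an alternative.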

Additional observations from a re-analysis of the deposited data

Results flagged for a closer look

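Of 30 sets of 4 libraries (10 members in 3 groups), 1 held a library far from the others. The Col3a1 promoter stood at 0.399 CPM in control 3, against 4.47, 4.66 and 4.40 CPM in the other control libraries, and its gap to the nearest took 0.939 of the group's range. This was 1 count in a shallow library. Chance gives a gap past Dixon's critical value for 4 samples in about 1 of 20 sets, and this gap exceeded that value.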

How the results depend on the processing

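Members called stayed at 0 under every alternative run in each comparison, as did enhancer regions near members called. Promoters called were 0 with all 12 libraries, except 1 for atorvastatin with DESeq2. Without control 3 and atorvastatin 3 they were 6 for PCN and 4 for atorvastatin, 124 and 57 with the replicate block added, and 2 and 6 with loess offsets added, with 0 for PCN against atorvastatin. No paired design is stated, and in all 12 libraries the replicate block left 0 called. Library totals as the only scaling moved the median of all promoters to -0.10 for PCN, from 0.01, and that of members to -0.44, from -0.33.

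Values of members near 0 changed sign, and the cause was not tested. For PCN, Dcn was at 0.25 with loess offsets, 0.079 with the replicate block, 0.19 by limma-voom and 0.37 at its second promoter row. Hgf was at 0.078 with loess offsets and Acta2 at -0.38 by limma-voom. For atorvastatin, Reln was at -0.006 with library totals and -0.065 by limma-voom, Acta2 at -0.013 and Col1a2 at -0.56 by limma-voom. Without control 3 and atorvastatin 3, Reln was at -0.03, Acta2 at -0.026, Col1a2 at -0.24 and Dcn at -0.21. With the replicate block added, Col1a2 was at -0.20 and Dcn at -0.19, and with loess offsets added, Reln was at -0.014 and Pdgfrb at 0.058. For PCN against atorvastatin, Acta2 was at 0.10 with loess offsets and 0.033 without the 2 libraries, and Lrat at 0.052 by limma-voom. Without the 2 libraries and with the replicate block, Acta2 was at 0.049 and Col1a2 at 0.061.

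Leaving out 1 library at a time, PCN values ranged from -0.42 (without PCN 2) to 0.50 (without PCN 4) for Acta2, from -0.40 (without control 3) to 0.50 (without control 1) for Dcn, above 0 also without PCN 2, PCN 3 or control 2, and from -0.43 (without control 4) to 0.19 (without control 1) for Hgf. Atorvastatin values ranged from -0.20 to 0.47 for Col1a2 (below 0 without atorvastatin 1, atorvastatin 3 or control 4), -0.018 to 0.87 for Dcn (below 0 without control 3), -0.33 to 0.091 for Pdgfrb (above 0 without atorvastatin 2, atorvastatin 4 or control 3) and -0.042 to 0.20 for Reln (below 0 without atorvastatin 1, 2 or 3). PCN against atorvastatin ranged from -0.70 to 0.22 for Acta2 (above 0 without PCN 3, PCN 4 or atorvastatin 3) and -0.53 to 0.11 for Lrat (above 0 without atorvastatin 1). Des for PCN ranged from -1.38 to -0.70 and Lrat from -1.15 to -0.56, each nearest 0 without control 3. Over all 21 alternatives, Des for PCN came as near 0 as -0.49 and Lrat as -0.28. Depth limits Acta2, Col1a2, Col3a1, Dcn and Hgf, each at 7 or fewer counts in control 4.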
